A study of Mus musculus with 6 samples.

Results

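The genes described here are 58 neighbours on mouse chromosome 12, from Exd2 to Ddx24, in which most expressed genes gave higher signals in i2PS cells than in E14TG2A cells. They were taken from a list of names, and the list was chosen with the values of this same comparison known. All differences between the lines given below are therefore descriptions, without a test of their own. All 58 lie on chromosome 12 in the RefSeq annotation of GRCm38.p6, and 46 of them gave enough signal to enter the fit over 8651 genes.

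The study set i2PS cells against E14TG2A cells. i2PS cells are a BALB/c line of liver origin, which the labels describe as hepatocytes that were reprogrammed to pluripotency in the living animal. E14TG2A is an embryonic stem cell line of the Sv129 strain, derived from the inner cell mass of the blastocyst and bought from ATCC. Both grew with LIF on embryonic fibroblasts, and before harvest they went through 3 passages on gelatin meant to remove these feeder cells. Each line had 3 biological replicates and 1 array per replicate. Strain, tissue of origin and reprogramming history differ together between the lines and cannot be told apart, and the replicates of a line are cultures of that line, so that the p-values behind the calls measure the spread between cultures. Probe sequences were not used here, so whether a difference in sequence between the strains lies under a probe was not tested, which bears most on genes read by 1 kept probe, such as Itpk1 and Sipa1l1.

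A stretch of chromosome is not a pathway. Its genes share a place in the genome and can share promoters with the neighbour on the opposite strand, but most have unrelated functions. This stretch of mouse chromosome 12 holds the mismatch repair gene Mlh3, the Notch inhibitor Numb, the pluripotency regulator Esrrb, which is not on the list, and many housekeeping genes of RNA processing, metabolism and the secretory pathway. Farther along the chromosome lies the imprinted Dlk1-Dio3 region.

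Signals were read on 6 single-colour Illumina bead arrays of total RNA, and precision is limited by how few arrays there are. Mean signal was 340 to 357 on the i2PS arrays and 228 to 403 on the E14TG2A arrays. E14TG2A replicate 1 was the dimmest array, with 13994 probes detected against 14953 to 15922 on the others. All 8 markers of pluripotent cells were detected on every array. Of 9 hepatocyte markers 6 were detected on no array, Alb and Afp among them. Trf was detected on all 6 arrays, with mean log2 intensities of 5.53 in i2PS and 5.55 in E14TG2A. Hnf4a was detected on 2 i2PS arrays and 1 E14TG2A array, and Apoa2 on 0 i2PS arrays and 1 E14TG2A array. Of 8 fibroblast markers 4 were detected on no array, namely Col1a2, Col3a1, Lum and Postn. Of the others, Thy1 was detected on all 6 arrays, with mean log2 intensities of 6.90 in i2PS and 6.06 in E14TG2A, Dcn and Pdgfra on 1 i2PS array each, and Col1a1 on 0 i2PS and 2 E14TG2A arrays, at 4.36 in i2PS and 5.14 in E14TG2A. Their part in the differences below was not tested. The arrays measured RNA of whole cultures, in which fewer cells of a type and less RNA per cell cannot be told apart, and the DNA of the lines was not analysed here.

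Promoter sequences of the genes at the extremes are given first, since start sites are what neighbours on opposite strands can share. They come from RefSeq with GRCm38.p6, run 5′ to 3′ on the strand of the gene, and end at the base before the start site. Capitals mark the letters of the GC box (GGGCGG) and of the CCAAT box, found on either strand. Itpk1, Sipa1l1 and Mlh3 had the 3 largest differences towards i2PS, Aldh6a1 had the lowest value, and the last sequence is the whole gap between the start sites of Erh and Slc39a9, written on the plus strand.
Itpk1 (chr12:102704870-102705019, minus strand): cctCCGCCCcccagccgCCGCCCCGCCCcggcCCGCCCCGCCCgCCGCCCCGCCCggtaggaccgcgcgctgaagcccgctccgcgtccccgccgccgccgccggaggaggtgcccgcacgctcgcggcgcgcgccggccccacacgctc
Sipa1l1 (chr12:82169866-82170015, plus strand): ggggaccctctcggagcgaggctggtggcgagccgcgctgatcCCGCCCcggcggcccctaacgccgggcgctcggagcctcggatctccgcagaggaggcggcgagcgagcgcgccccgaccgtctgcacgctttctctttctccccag
Mlh3 (chr12:85270600-85270749, minus strand): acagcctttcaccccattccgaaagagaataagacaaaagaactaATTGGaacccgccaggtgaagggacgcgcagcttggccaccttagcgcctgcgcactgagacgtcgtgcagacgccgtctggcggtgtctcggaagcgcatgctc
Aldh6a1 (chr12:84451025-84451174, minus strand): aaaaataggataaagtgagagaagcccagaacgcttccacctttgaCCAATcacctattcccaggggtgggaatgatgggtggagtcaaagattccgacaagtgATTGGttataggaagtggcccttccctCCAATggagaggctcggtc
Erh to Slc39a9 (chr12:80644112-80644214, plus strand): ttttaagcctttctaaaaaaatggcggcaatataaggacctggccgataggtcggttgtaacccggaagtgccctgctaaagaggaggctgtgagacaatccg
The Itpk1 sequence is crowded with GC boxes, and that of Sipa1l1 holds 1. The Mlh3 and Aldh6a1 sequences hold CCAAT boxes, and neither box occurs in the gap between Erh and Slc39a9.

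Promoters in RefSeq were found for 53 of the 58 genes, in windows of 300 bases with 250 before and 50 after the start site; those of Exd2, Angel1, Abcd4, Smoc1 and Fcf1 were not used here. The GC box was present in 66% of them, against 67.5% of 7054 promoters of tested genes and 35.9% of all 27025 promoters. CCAAT was present in 52.8% of the promoters of the stretch, against 39.8% of those of tested genes and 38% of all. TATAAA was present in 1 of the 53, Zfp36l1, or 1.89%, against 7.06% over tested genes. The E-box CACGTG was present in 11.3%, against 10.7% over tested genes and 7.24% of all. The cAMP response element TGACGTCA was present in 0 of the 53, where 3.54% of tested genes hold it, and the NRF1 motif in 1.89% against 2.21%. Each was searched on both strands and none contains another. The median window held 20 CG dinucleotides in the stretch, 22 over tested genes and 7 over all promoters. Within the stretch the median was 22 for the genes past the threshold and 19 for those tested that did not pass. A match of letters is a description and says nothing of the binding of a factor.

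Along the chromosome, the listed genes lay in 1 block with 40 other tested genes. The RefSeq order differs from that of the list in 5 places, because Zfp36l1 and Actn1 come before Exd2, and Acot2 comes before Acot1. In RefSeq order the block runs from Zfp36l1 to Ddx24 and holds 86 tested genes, which follow 140 tested genes and precede 59 others. Differences are given on the log2 scale as i2PS minus E14TG2A, with the standard error of the limma fit and 3 arrays per line. Called genes are those with a Benjamini-Hochberg adjusted p under 0.05 over all 8651 genes.

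Of the 46 tested genes of the list, 31 were called higher in i2PS, 0 were called lower and 15 did not pass. Slc39a9, Tdp1, Cep128 and Entpd5, all among the 31, passed the filter on low signal only through i2PS, where they are high; of the 42 detected on all 6 arrays, 27 were called higher and 0 lower, with a median difference of 0.46. Over all tested genes 23.3% were called higher and 20.4% lower, and since the list was chosen on this contrast nothing follows from the comparison of these shares. The difference was above 0 for 43 of the 46, where 53.1% of all tested genes lay above 0. The lines did not overlap, with i2PS higher, for 38 of the 46, and this was so for 30.2% of all tested genes. They did not overlap with i2PS lower for 0 of the 46, against 25.6% of all. The median difference was 0.51, a fold of 1.43, with quartiles of 0.28 and 0.76, while the median over all tested genes was 0.03. Only 6 of the 46 were at least 2-fold higher in i2PS, against 3.16% of all tested genes, and 18 of the called genes had a 95% interval wholly below a 2-fold difference. The stretch is made of many modest differences and a few large ones.

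**Figure D1:**
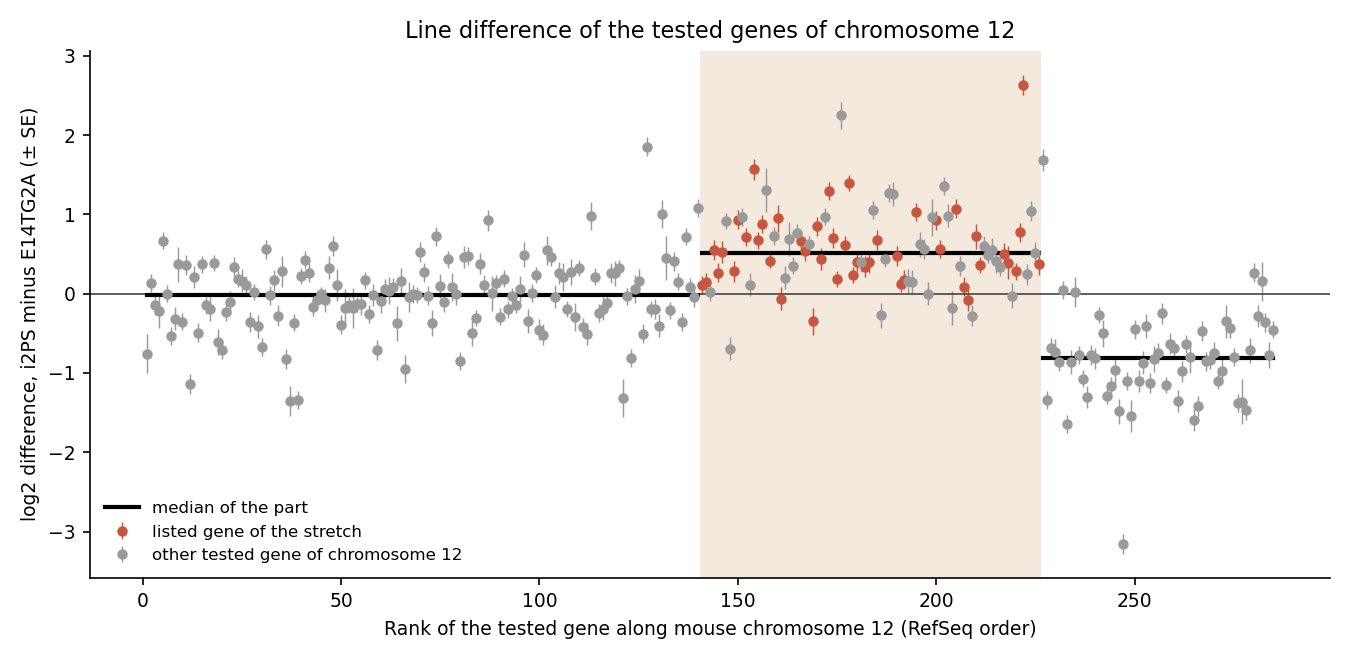
Log2 difference between i2PS and E14TG2A (points, with the standard error) of each of the 285 tested genes of chromosome 12 in RefSeq order. Listed genes are red, other genes grey, the stretch is shaded and black lines are medians, at -0.02 before, 0.52 within and -0.81 after the stretch.

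The 40 other tested genes of the block, read on the same arrays, had a median of 0.53. Among them 27 were called higher and 1 was called lower, against 23.3% and 20.4% of all tested genes. Rps6kl1 was the highest of them at 2.25 ± 0.17, followed by Gtf2a1, a subunit of the general transcription factor TFIIA, at 1.36 ± 0.12. Rbm25, a splicing factor, was at 1.31 ± 0.28 but was detected on 1 of 3 E14TG2A arrays, and Irf2bpl and Cipc were at 1.27 ± 0.11 and 1.26 ± 0.15. Of the 40 genes, 35 were detected on all 6 arrays. Rbm25, Mideas and Gm5662 are among the 27 but passed the filter only through i2PS. Mideas and Gm5662 were detected on 2 of 3 E14TG2A arrays. Susd6 was the 1 called lower, at -0.70 ± 0.15, with 8.74, 8.30 and 8.28 in i2PS against 9.03, 9.12 and 9.27 in E14TG2A (log2 intensity). Another 12 of these genes did not pass: Dcaf5, Pcnx, Pnma1, Ift43, Noxred1, Vipas39, Snw1, Ptpn21, Eml5, Efcab11, Rin3 and Ubr7, with differences from -0.28 to 0.35.

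The ends of the block differed in sharpness. On the near side the 5 tested genes before Zfp36l1 were mixed: Pigh was at -0.35 ± 0.12, Vti1b at 0.72 ± 0.11, Rdh11 at 0.09 ± 0.11, Rdh12 at -0.04 ± 0.13 and Zfyve26 at 1.08 ± 0.11. The first 3 tested genes inside, Zfp36l1, Actn1 and Dcaf5, lay at 0.11, 0.15 and 0.02, and Exd2, the fourth, at 0.55. At the far end Ddx24, the last listed gene, was at 0.37 ± 0.13. The next tested gene, Ifi27, an interferon-induced gene, had no detection on the E14TG2A arrays, and its i2PS signal was at least 2.26-fold higher. The one after it, Ppp4r4, was detected on no i2PS array and was at least 1.62-fold lower there. Dicer1 (-0.68 ± 0.12), Snhg10 (-0.74 ± 0.16) and Glrx5 (-0.86 ± 0.11) came next, so that the sign of the differences turned between Ifi27 and Ppp4r4. Such bounds set the bright line's mean against the lowest detected signal on each array of the other line, unless the gene itself read higher than that.

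Position within the list made little difference to the median. For genes 1 to 14 of the list, 11 were tested and the median was 0.55, and for genes 15 to 29, also with 11 tested, it was 0.54. For genes 30 to 43 it was 0.40 over 11 tested genes, and for genes 44 to 58 it was 0.50 over 13. Size did not pass smoothly from gene to gene: across the 85 neighbouring pairs of tested genes in the block the correlation of 1 difference with the next was 0.01. This is a description of genes read on the same arrays. The longest run of genes above 0 held 17 tested genes, from Esrrb to Sel1l.

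**Figure D2:**
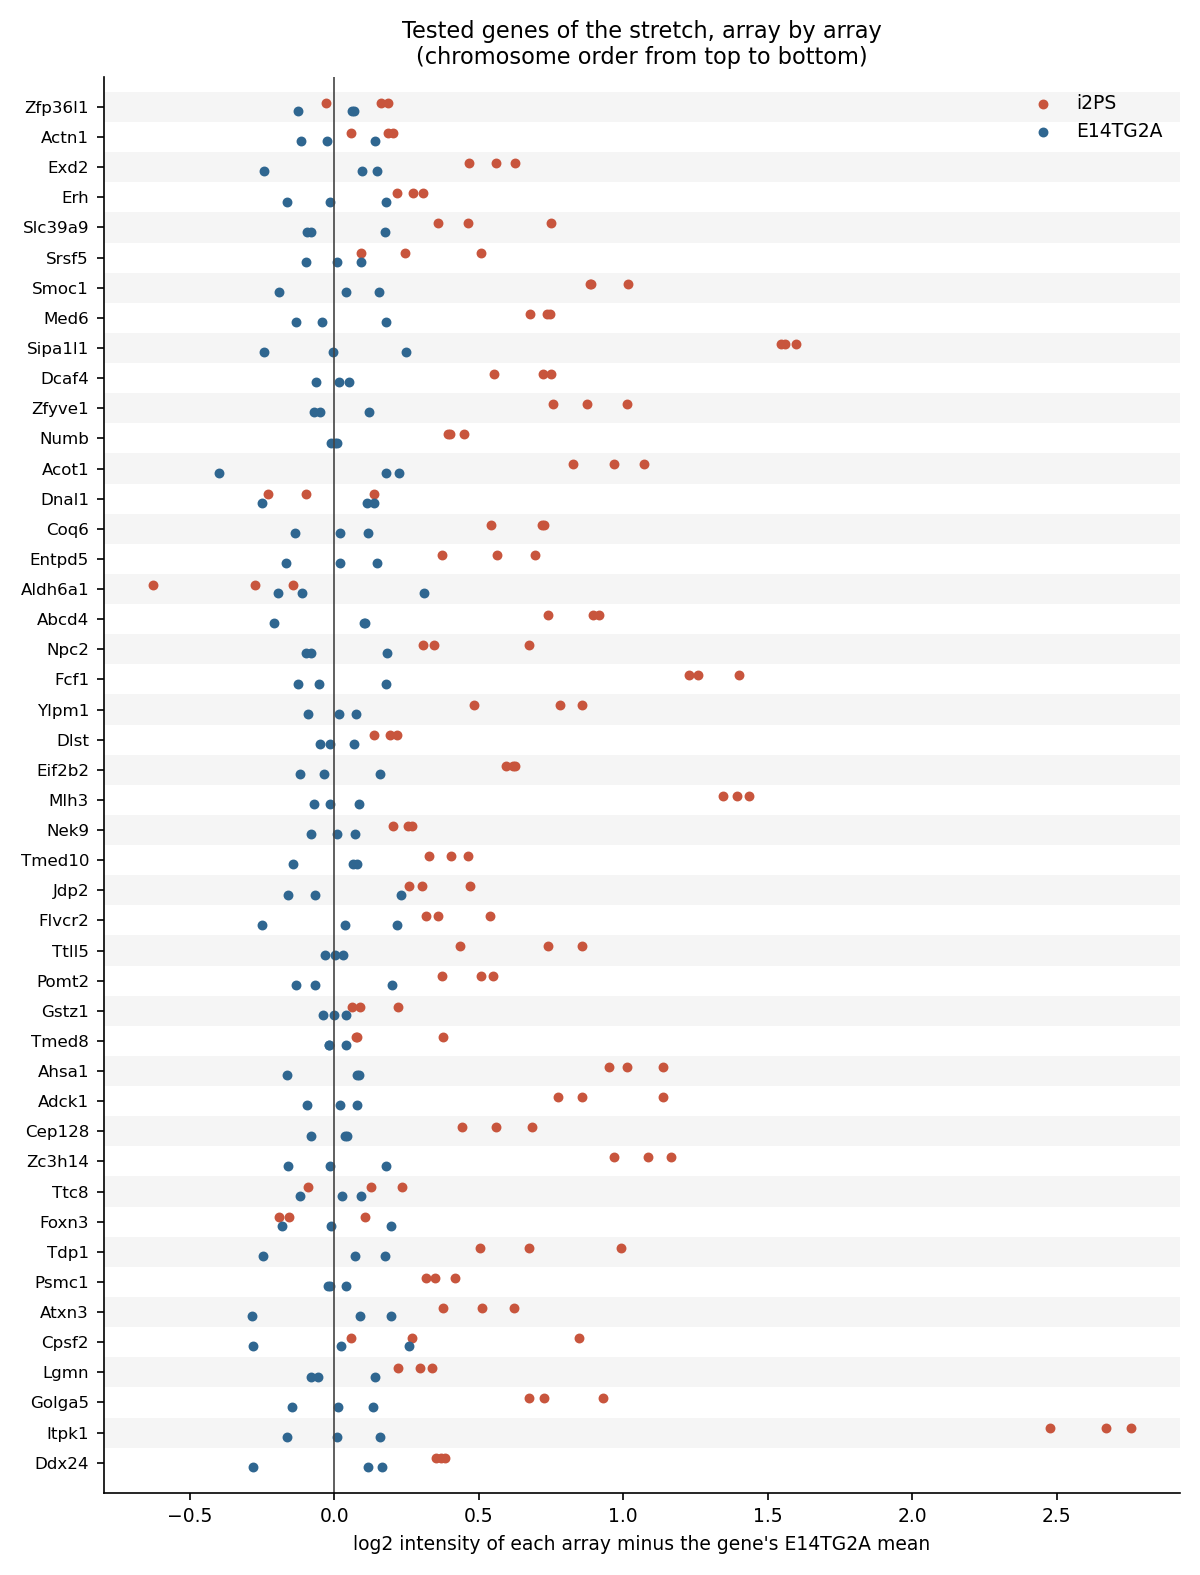
Log2 intensity of each array relative to the mean of the 3 E14TG2A arrays, for the 46 tested genes of the list in chromosome order; i2PS arrays are red and E14TG2A arrays blue. For Itpk1 all i2PS arrays, at log2 intensities of 10.91 to 11.19, lie far above the E14TG2A arrays, at 8.27 to 8.59, whereas for Dnal1, Foxn3, Ttc8 and Zfp36l1 the lines overlap.

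Among genes of inositol phosphate and intermediary metabolism, Itpk1, a kinase of inositol phosphates, stood highest of the whole list. Its log2 intensity was 10.91, 11.10 and 11.19 in i2PS and 8.44, 8.59 and 8.27 in E14TG2A. The lowest i2PS array lay far above the highest E14TG2A array, and the difference of 2.64 ± 0.13 was the fifth largest rise of all 8651 genes, a fold of 6.21. Its nearest tested neighbours were much closer to the median of the block, with Golga5 at 0.78 ± 0.12 on one side and Ubr7 at 0.25 ± 0.14 on the other.

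Of 11 metabolic genes on the list, 9 were tested, of which 6 were called higher and 0 lower. Counts by role, here and below, are parts of the 31 of 46 called higher over the list. Over all tested genes 23.3% were called higher. The list was chosen on this contrast, so nothing about a role follows from its count. Acot1, a cytosolic acyl-CoA thioesterase, averaged 8.78 ± 0.12 in i2PS and 7.82 ± 0.35 in E14TG2A (log2 intensity, SD, n = 3 each), without overlap and with a difference of 0.95 ± 0.17. Its mitochondrial paralogue Acot2 was not tested: 1 of its probes was detected on 2 i2PS arrays, another on 1 E14TG2A array, and none on all arrays of a line. The family has close copies side by side, so that cross-hybridisation between their probes cannot be told apart from signal of the named gene. Adck1, a mitochondrial kinase-like protein, had 7.69, 7.33 and 7.41 in i2PS against 6.46, 6.63 and 6.57 in E14TG2A. Its lines were well apart, with a difference of 0.92 ± 0.12, while Abcd4, which moves cobalamin out of the lysosome, was at 0.85 ± 0.12, and Coq6, an oxygenase of ubiquinone synthesis, at 0.66 ± 0.11. Entpd5, a nucleotidase of the endoplasmic reticulum, was at 0.54 ± 0.13 and was detected on 2 of 3 E14TG2A arrays; on the authors' processed values it did not pass, at 0.18. The other 3 tested metabolic genes did not pass. Aldh6a1, a dehydrogenase of valine breakdown, had 6.71, 6.22 and 6.58 in i2PS and 7.16, 6.74 and 6.65 in E14TG2A, so that the lines overlapped around a difference of -0.35 ± 0.17 (95% interval -0.73 to 0.04). Gstz1, an isomerase of tyrosine breakdown, was at 0.12 ± 0.10. Dlst, the core of the oxoglutarate dehydrogenase complex, was at 0.18 ± 0.10, and Acyp1, an acylphosphatase, was detected on no array.

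**Figure D3:**
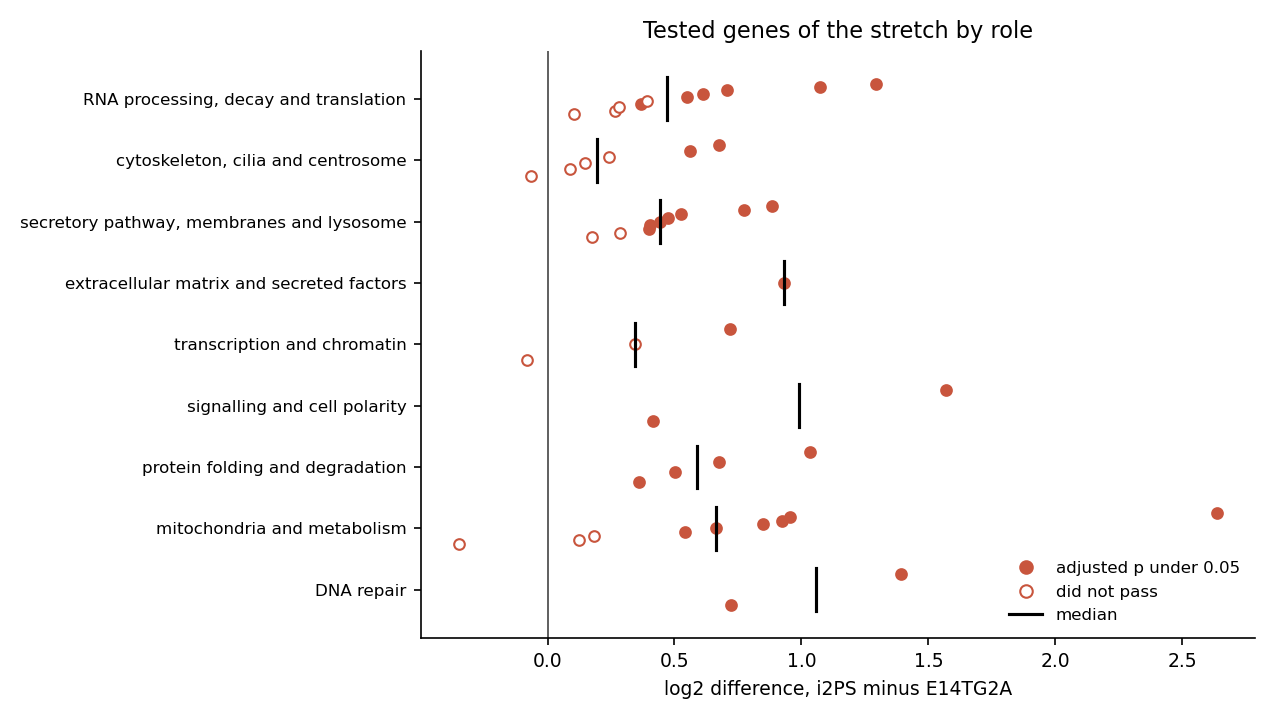
Log2 difference between i2PS and E14TG2A of the 46 tested genes of the list, grouped by role; filled points passed an adjusted p of 0.05, open points did not, and bars are medians. The medians of roles with more than 1 tested gene run from 0.20 for cytoskeletal and ciliary genes to 1.06 for the DNA repair genes, of which Tdp1 is not detected in E14TG2A, and Itpk1, at 2.64, is the single point far to the right.

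Genes of RNA processing, decay and translation were the largest tested group, with 10 of 11 tested, 6 called higher and a median of 0.47. Fcf1, needed for ribosomal RNA processing, had 9.88, 9.92 and 10.06 in i2PS and 8.61, 8.53 and 8.84 in E14TG2A, a difference of 1.29 ± 0.12. Zc3h14, which binds poly(A) tails, had 10.41, 10.60 and 10.53 in i2PS and 9.28, 9.42 and 9.62 in E14TG2A, a difference of 1.07 ± 0.12. In both genes every i2PS array stood clear of every E14TG2A array. Ylpm1 was at 0.71 ± 0.13, Eif2b2, a subunit of the exchange factor that recharges initiation factor eIF2, at 0.61 ± 0.11, and the exonuclease Exd2 at 0.55 ± 0.13. The helicase Ddx24 was at 0.37 ± 0.13. Its adjusted p of 0.0499 in limma lay just inside the threshold, and neither of its other 2 kept probes passed. Erh (0.27 ± 0.12), the splicing factor Srsf5 (0.28 ± 0.13), the cleavage factor Cpsf2 (0.39 ± 0.21) and Zfp36l1 (0.11 ± 0.11), which marks AU-rich mRNAs for decay, did not pass. Angel1 was detected on 1 i2PS array and on no E14TG2A array.

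Of the DNA repair genes of the list, Mlh3 was measured in both lines and Tdp1 only in i2PS. Mlh3, a mismatch repair protein that also acts in meiotic crossing over, had 8.75, 8.84 and 8.80 in i2PS and 7.39, 7.34 and 7.49 in E14TG2A. The spread within each line was small beside the gap, and the difference was 1.39 ± 0.10, a fold of 2.62. Tdp1, which frees DNA ends from trapped topoisomerase, was detected on all i2PS arrays and on no E14TG2A array. Its signal lay near background, with a mean of 5.36 in i2PS and 4.64 in E14TG2A, and i2PS was at least 1.32-fold higher.

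Proteostasis genes were all called higher, 4 of 4, on a list where 31 of 46 were. Ahsa1, which stimulates the ATPase of the chaperone HSP90, led them, with 9.91, 10.10 and 9.98 in i2PS and 9.04, 8.80 and 9.05 in E14TG2A. That is a difference of 1.03 ± 0.12, while Dcaf4, a substrate receptor of cullin ubiquitin ligases, was at 0.67 ± 0.11. The deubiquitinase Atxn3 was at 0.50 ± 0.14, and Psmc1, an ATPase of the proteasome, at 0.36 ± 0.10.

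In the secretory pathway and the lysosome 9 of 10 genes were tested, 7 were called higher and 0 lower, with a median of 0.44. Zfyve1, which binds phosphoinositides on membranes, had 7.35, 7.47 and 7.60 in i2PS against 6.52, 6.54 and 6.71 in E14TG2A, without overlap. Its difference was 0.88 ± 0.11, and that of the golgin Golga5 was 0.78 ± 0.12. Pomt2, which adds mannose to dystroglycan, was at 0.48 ± 0.12, the lysosomal cholesterol carrier Npc2 at 0.44 ± 0.14, the membrane transporter Flvcr2 at 0.40 ± 0.14 and the cargo receptor Tmed10 at 0.40 ± 0.11. The zinc transporter Slc39a9 was detected on no E14TG2A array, and its i2PS signal was at least 1.16-fold higher; its call ended on the authors' processed values, at 0.16, and with normexp and an offset of 50, at 0.22. Lgmn, a protease of the lysosome, at 0.28 ± 0.11, and Tmed8, at 0.18 ± 0.12, did not pass, and the golgin Trip11 was detected on no array.

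Regulators were thinly covered. The Mediator subunit Med6 averaged 10.86 ± 0.04 in i2PS and 10.14 ± 0.16 in E14TG2A (log2 intensity, SD, n = 3 each), a difference of 0.72 ± 0.11 without overlap. Jdp2, a repressor that binds AP-1 sites, was at 0.34 ± 0.13 and did not pass, and the forkhead repressor Foxn3 was at -0.08 ± 0.13 with overlapping lines. Dpf3 of the BAF complex, Lin52 of the DREAM complex and Batf were detected on no array.

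Among signalling genes Sipa1l1, which switches off the GTPase Rap, had 9.53, 9.58 and 9.54 in i2PS and 7.74, 8.23 and 7.98 in E14TG2A. The difference of 1.57 ± 0.13, a fold of 2.97, was the largest of the list after Itpk1. Numb, an inhibitor of Notch that is shared out unequally in asymmetric divisions, was at 0.41 ± 0.10, with 9.30, 9.35 and 9.30 in i2PS and 8.89, 8.91 and 8.91 in E14TG2A. The kinase Map3k9 was detected on no array.

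Matrix and secreted proteins were mostly below detection. Only Smoc1, a secreted calcium-binding protein, was tested, with 8.38, 8.51 and 8.38 in i2PS and 7.30, 7.65 and 7.53 in E14TG2A, a difference of 0.93 ± 0.12. Papln, Ltbp2, Pgf and Fbln5 were detected on no array of either line.

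Of 6 cytoskeletal, ciliary and centrosomal genes, 2 were called higher and 0 lower, with a median of 0.20 on the brightest probes. The tubulin glutamylase Ttll5 was at 0.68 ± 0.13, and Cep128 of the centriole at 0.56 ± 0.11, with detection on 1 of 3 E14TG2A arrays; on the authors' processed values it did not pass, at 0.18. The mitotic kinase Nek9 was at 0.24 ± 0.10, the actin crosslinker Actn1 at 0.15 ± 0.11 and Ttc8 of the BBSome at 0.09 ± 0.12. Dnal1, a light chain of axonemal dynein, had 5.49, 5.36 and 5.72 in i2PS and 5.73, 5.70 and 5.34 in E14TG2A, a difference of -0.06 ± 0.15 (95% interval -0.39 to 0.26); its lines overlapped.

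Of the 15 tested genes that did not pass, 7 had lines that did not overlap, namely Erh, Dlst, Nek9, Jdp2, Gstz1, Tmed8 and Lgmn, all with i2PS higher. In the other 8, Zfp36l1, Actn1, Srsf5, Dnal1, Aldh6a1, Ttc8, Foxn3 and Cpsf2, the lines overlapped, though those of Srsf5 only met, at 11.55. None of the 46 was called lower. Over all tested genes, passing or not, the lines did not overlap with i2PS higher in 30.2% and with i2PS lower in 25.6%. The list was chosen on this contrast, so nothing follows from the side on which the 7 lie.

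Array by array, the overlap took several forms. Zfp36l1 had 11.83, 11.85 and 11.64 in i2PS against 11.54, 11.74 and 11.73 in E14TG2A, and its difference was 0.11 ± 0.11 (95% interval -0.15 to 0.36). Actn1 had 10.89, 11.04 and 11.02 in i2PS against 10.72, 10.81 and 10.97 in E14TG2A, and its difference was 0.15 ± 0.11 (95% interval -0.10 to 0.40). In Actn1 only 1 E14TG2A array reached into the i2PS range. Srsf5 had 11.97, 11.55 and 11.71 in i2PS against 11.37, 11.47 and 11.55 in E14TG2A, with a difference of 0.28 ± 0.13 (95% interval -0.01 to 0.57). Ttc8 had 6.09, 5.99 and 5.77 in i2PS against 5.95, 5.74 and 5.89 in E14TG2A, with a difference of 0.09 ± 0.12 (95% interval -0.19 to 0.36). Foxn3 had 9.22, 8.96 and 8.92 in i2PS against 8.93, 9.10 and 9.31 in E14TG2A, with a difference of -0.08 ± 0.13 (95% interval -0.39 to 0.22). The highest reading of Foxn3 came from E14TG2A replicate 3, and the other arrays were mixed. Cpsf2 had 6.33, 6.91 and 6.12 in i2PS against 6.32, 6.09 and 5.78 in E14TG2A, with a difference of 0.39 ± 0.21 (95% interval -0.08 to 0.86), the widest error of the list. In the genes without overlap the gap was narrow. For Erh the difference was 0.27 ± 0.12 (95% interval 0.00 to 0.53), with 13.22, 13.31 and 13.28 in i2PS against 13.18, 12.99 and 12.84 in E14TG2A. For Dlst it was 0.18 ± 0.10 (95% interval -0.04 to 0.41), with 11.08, 11.05 and 10.99 in i2PS against 10.93, 10.81 and 10.84 in E14TG2A. In both genes E14TG2A replicate 1 was the array nearest to i2PS. For Nek9 it was 0.24 ± 0.10 (95% interval 0.01 to 0.47), with 9.67, 9.60 and 9.65 in i2PS against 9.47, 9.32 and 9.41 in E14TG2A. For Jdp2 it was 0.34 ± 0.13 (95% interval 0.05 to 0.64), with 6.82, 6.65 and 6.61 in i2PS against 6.28, 6.58 and 6.19 in E14TG2A. The E14TG2A arrays of Jdp2 spread more widely than those of i2PS. Gstz1 gave 9.78, 9.62 and 9.65 in i2PS against 9.55, 9.60 and 9.52 in E14TG2A, for a difference of 0.12 ± 0.10 (95% interval -0.11 to 0.35). Tmed8 gave 7.92, 7.62 and 7.62 in i2PS against 7.52, 7.52 and 7.58 in E14TG2A, for a difference of 0.18 ± 0.12 (95% interval -0.09 to 0.44). Lgmn gave 9.44, 9.52 and 9.56 in i2PS against 9.36, 9.17 and 9.14 in E14TG2A, for a difference of 0.28 ± 0.11 (95% interval 0.04 to 0.53). In Gstz1 and Tmed8 the nearest arrays of the lines almost touched.

 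Of the 12 genes that were not tested, 10 were detected on no array with the brightest probe, and Acot2 and Angel1 on some. All 46 tested genes were detected on all 3 i2PS arrays, and 4 of them on fewer than 3 E14TG2A arrays, which means that these 4 could pass the filter only through i2PS. With the filter left out, so that all 58 genes entered by their brightest probe, the median difference was 0.40, 50 of 58 lay above 0, and 29 were called higher and 0 lower, where 9.24% of 19053 genes were called higher in that setting. The 12 untested genes alone had a median of 0.05 there, with 7 of 12 above 0.

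Other probes of the same genes gave a further view of those that did not follow, within the same arrays and the same contrast. The 58 genes had 129 probes, of which 77 were kept, and 18 genes had more than 1 kept probe. In 16 of the 18 every kept probe lay on the same side of 0, and in 0 did kept probes pass in both directions. The exceptions were Zfp36l1, with probes at -0.38 ± 0.23 (detected on no i2PS array), 0.11 ± 0.12 and 0.41 ± 0.16, and Dnal1, with probes at -0.06 ± 0.15, 0.31 ± 0.13 and 0.53 ± 0.19. These errors come from the fit over all kept probes. Some probes of the other 16 genes were kept only through i2PS, where they are high, and are named below. That favours values above 0, so nothing follows from the count of 16. Of 7 genes that did not pass but had another kept probe, 4 had one called higher. They were Dnal1 (at 0.53), Dlst (0.72 ± 0.16), Ttc8 (0.42 ± 0.10) and Srsf5 (0.37 ± 0.12). For Zc3h14 all 6 kept probes were called higher, at 0.63 to 1.07, and for Mlh3 all 3, at 0.72 to 1.39. Kept only through i2PS were the Dnal1 probe at 0.53, detected on 2 E14TG2A arrays, and a Zc3h14 probe at 0.66, detected on 1. The same holds for the Mlh3 probes at 0.72 and 1.20, detected on 1 and 2 E14TG2A arrays. It also holds for a probe each of Numb (0.38), Acot1 (0.38) and Abcd4 (0.64), detected on 2 E14TG2A arrays. A Dlst probe at 0.47, detected on 1 E14TG2A array, was kept in the same way. So were both kept probes of Cep128, at 0.67 and 0.56, detected on 0 and 1 E14TG2A arrays. The 3 probes of Exd2 lay between 0.48 and 0.60, and those of Coq6 between 0.56 and 0.66. Some called genes had another kept probe that did not pass. These were Acot1 (0.38 ± 0.23), Abcd4 (0.64 ± 0.25), Atxn3 (0.27 ± 0.12) and Ddx24 (0.26 ± 0.11 and 0.09 ± 0.10).

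**Figure D4:**
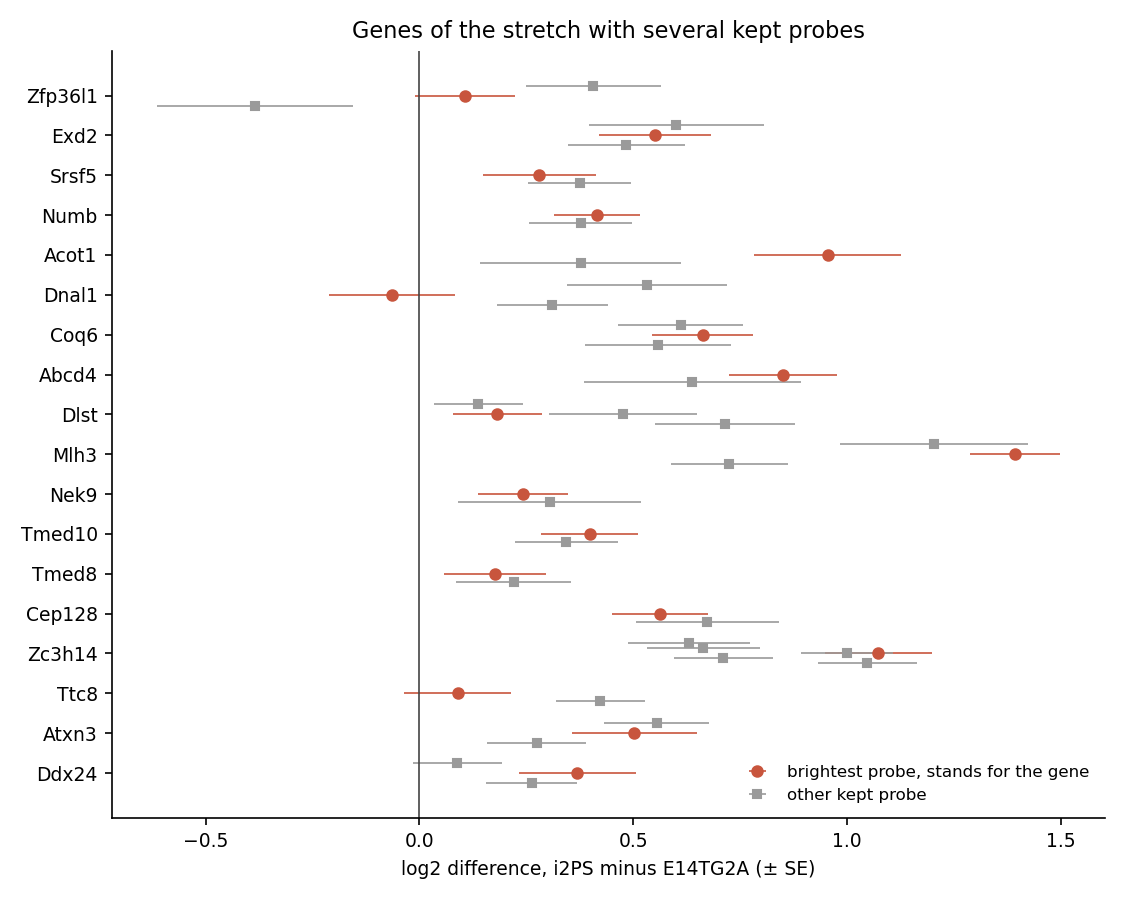
Log2 difference between i2PS and E14TG2A, with the standard error, of every kept probe of the 18 listed genes with more than 1; the brightest probe, which stands for the gene, is red and the others are grey squares. Only Zfp36l1 and Dnal1 have probes on both sides of 0.

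Genes that start back to back gave the closest comparison of neighbours. In 10 pairs a listed gene started on the opposite strand within 1000 bases of another gene, and in 3 of them both were tested. Erh and Slc39a9, whose start sites are 104 bases apart and whose shared gap is printed above, cannot be set side by side in size, since Erh was at 0.27 ± 0.12 and Slc39a9, not detected in E14TG2A, has only the bound given above. Ttll5 and Erg28, 27 bases apart, were at 0.68 ± 0.13 and 1.05 ± 0.12. Ahsa1 and Vipas39, 442 bases apart, were at 1.03 ± 0.12 and 0.15 ± 0.15. Ttll5 and Vipas39 were dim, with mean log2 intensities of 5.85 and 5.70 in i2PS and 5.17 and 5.56 in E14TG2A. Their partners Erg28 and Ahsa1 were at 9.78 and 9.99 in i2PS and 8.73 and 8.96 in E14TG2A. Sizes within these pairs were thus read at unlike signal levels. Lin52, which starts 484 bases from Aldh6a1, was detected on no array. No difference within a pair was tested.

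Another setting of the processing moved the size of these differences more than their direction. The 31 called genes stayed above 0 under every one of 18 other settings in which they were tested; Slc39a9, Entpd5, Cep128 and Tdp1 were tested in 17, since detection on all 6 arrays leaves them out. When only the array medians were made equal, in place of quantile normalization, the error was larger and was 0.36 for every gene alike. A call there rests on the size of the difference alone. In that setting 9 listed genes were called higher: Itpk1, Sipa1l1, Mlh3, Fcf1, Zc3h14, Ahsa1, Acot1, Smoc1 and Adck1. The same 9 passed under every setting. Over all genes that setting called 634 in either direction, and 4.13% of all genes were called higher. Leaving out 1 array ended 8 of the 31 calls, all of them genes with differences of 0.52 or less. Such fits have fewer arrays, and over all genes the calls in either direction fell from 3781 to between 2763 and 3357. The exception was the fit without E14TG2A replicate 1, with 4302. The Slc39a9 call ended on leaving out i2PS replicate 3, with a difference of 0.41. The Npc2 call ended on leaving out i2PS replicate 1, i2PS replicate 3 or E14TG2A replicate 3, with a difference of 0.33 to 0.49. The Tmed10 call ended on leaving out i2PS replicate 2 or i2PS replicate 3, with a difference of 0.36 to 0.39. These 3 carry zinc, cholesterol and cargo proteins. The Flvcr2 call ended on leaving out i2PS replicate 1, i2PS replicate 2, i2PS replicate 3, E14TG2A replicate 1 or E14TG2A replicate 3, with a difference of 0.28 to 0.45. The Pomt2 call ended on leaving out i2PS replicate 2, with a difference of 0.44. The Psmc1 call ended on leaving out i2PS replicate 2, i2PS replicate 3 or E14TG2A replicate 2, with a difference of 0.33 to 0.37. The others are Atxn3 and Ddx24. The Atxn3 call ended on leaving out i2PS replicate 1 or i2PS replicate 3, with a difference of 0.44 to 0.50. The Ddx24 call ended on leaving out i2PS replicate 1, i2PS replicate 2, i2PS replicate 3, E14TG2A replicate 1 or E14TG2A replicate 3, with a difference of 0.23 to 0.43.

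**Figure D5:**
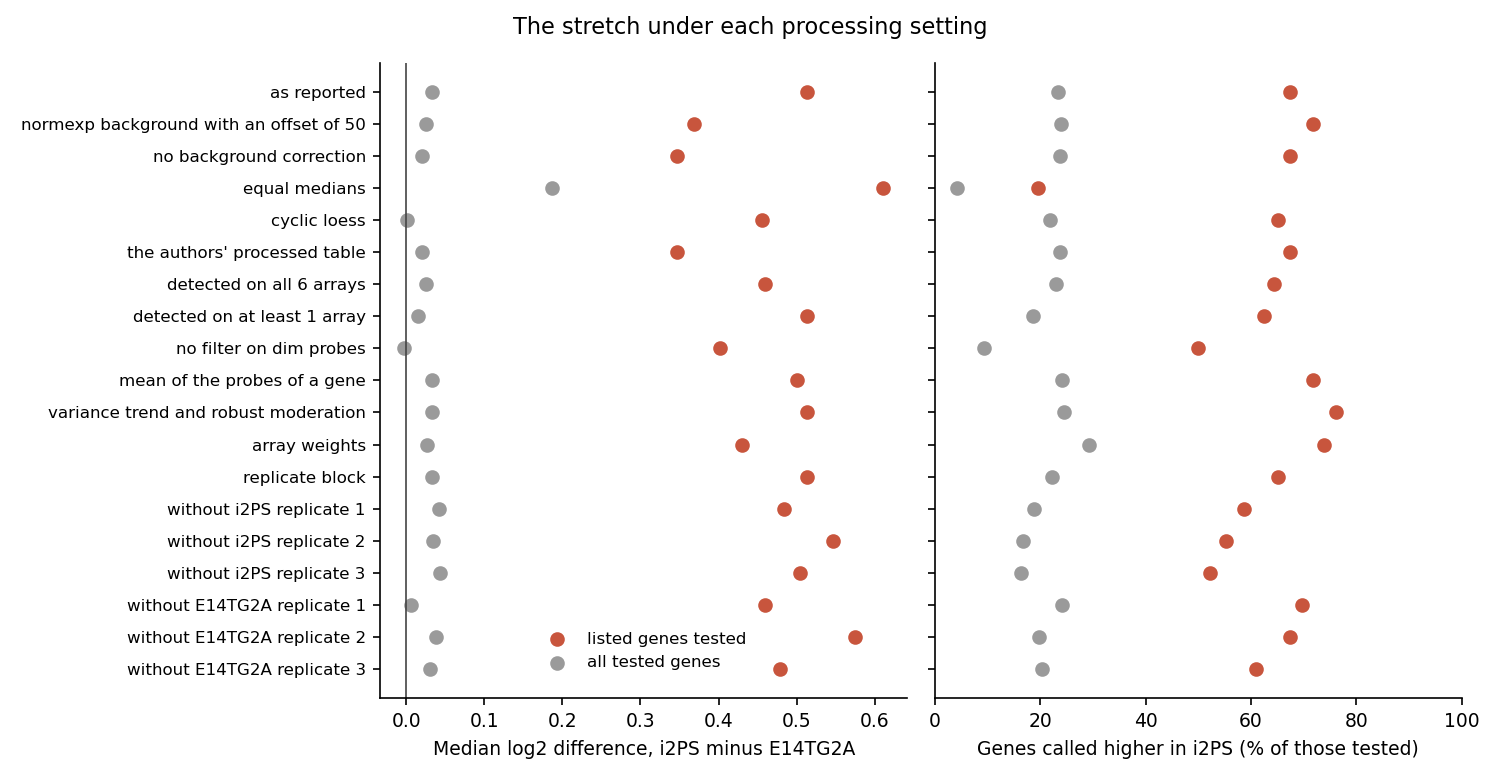
Left, the median log2 difference between i2PS and E14TG2A of the listed genes tested (red) and of all tested genes (grey) under each processing setting; right, the percentage of each called higher in i2PS. The median of the listed genes runs from 0.35 to 0.61 and lies above that of all tested genes in each setting shown.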

How the data were processed

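Per the submitters' processing notes, signals came from GenomeStudio, without a version or setting given in the sources used here. The deposited table holds linear intensity values of 45281 probes and, beside each, the authors' detection p-value against the negative controls of that array. A second deposited table holds the authors' quantile-normalized intensity values and was used as an alternative. With limma 3.58.1 in R 4.3.3, neqc removed background inferred from those p-values, with an offset of 16, then quantile-normalized the arrays and took log2. Kept probes had detection p under 0.01 on every array of i2PS, of E14TG2A or of both, and 1 gene symbol in the platform annotation, updated through RefSeq (GRCm38.p6). The kept probe with the highest mean stood for its gene. lmFit and eBayes compared i2PS with E14TG2A over all 8651 genes, at a Benjamini-Hochberg threshold of 0.05, and the method was tested on simulated data. The genes, their roles and the lists were chosen with earlier results of these data known. All 58 genes of the list were named, with the non-passing, the lower and the 5 highest other genes of the block, and 5 genes beyond each end. Promoter letters were searched in RefSeq windows. Alternatives changed background, normalization, filter, probe summary, moderation, weights, a replicate block and each array in turn. No slide was named for the arrays, so a slide block was not run.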

Additional observations from a re-analysis of the deposited data

How the results depend on the processing

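The count of 31 listed genes called higher became 9 with equal medians. Over all genes 4.13% were called higher there, against 23.3% with quantile normalization, and calls in either direction numbered 634 against 3781. The median of all genes moved to 0.19 with equal medians, so that the median of the list, 0.61, stands 0.42 above it. In no setting was a listed gene called lower. The median of the list fell to 0.37 with normexp and an offset of 50, and to 0.35 both without background correction and with the authors' processed table. With each array left out in turn, 24 to 32 listed genes were called higher, with medians of 0.46 to 0.58. Over all genes 16.4% to 24.1% were called higher in these fits. No shift shared by arrays of the same replicate number was seen, with correlations of same-numbered deviations of 0.0089, -0.047 and 0.068. Whether same-numbered cultures were handled together was not tested. A fit with a replicate block had 30 listed genes called higher, against 22.3% of all genes. Values near 0 changed sign: Dnal1 lay at 0.034 with equal medians and 0.26 as the mean of its probes, and between -0.19 (without E14TG2A replicate 3) and 0.019 (without i2PS replicate 2) with an array left out, with 0.0057 without E14TG2A replicate 1. Foxn3 lay at 0.11 with equal medians, and between -0.18 (without i2PS replicate 1) and 0.015 (without E14TG2A replicate 3) with an array left out. The cause was not tested. Of single-gene values, 736 kept direction and side of the threshold, 59 no longer passed and 23 newly passed. Low signal over background limits Slc39a9, Tdp1, Cep128 and Entpd5. The sizes of other dim genes also depended on the processing. At the lowest, Ttll5 went from 0.68 to 0.26, Abcd4 from 0.85 to 0.42 and Ylpm1 from 0.71 to 0.36.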
